A study of Homo sapiens with 12 samples.

Results

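The cytosolic ribosomal protein genes were described in RNA sequencing libraries of 2 diffuse large B-cell lymphoma (DLBCL) cell lines, U2932 and TMD8. Members were the protein-coding genes whose symbol has the form RPL or RPS with a number, plus RPLP0, RPLP1, RPLP2 and RPSA. Pseudogenes, the RPS6K kinases and the copy on the Y chromosome were left out. The rule gave 84 of the 58884 genes counted, of which 52 encode proteins of the large subunit and 32 of the small subunit. Both lines are labelled wild type, and each is a single established line that stands for DLBCL here. Cells were given 20 µg/mL of rituximab (R), ofatumumab (OF) or a human IgG1 isotype control for 4 h. R and OF are antibodies against CD20, the B-cell surface protein encoded by MS4A1. Each of the 6 conditions had 2 libraries, made from 2 cultures of the line that had been kept apart before treatment. Libraries with the same replicate number were taken to share a culture. The comparisons ask how the mRNAs of the ribosome differ after each antibody and between the lines.

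Every cytosolic ribosome carries one copy of most of these proteins, bound to ribosomal RNA, and growing cells spend a large part of their mRNA on them. Most of the mRNAs begin with a C followed by a run of pyrimidines, the 5′ terminal oligopyrimidine (TOP) tract, through which the mTOR kinase and the RNA-binding protein LARP1 control their translation and stability together. A few members have a second copy at another locus, such as RPL22L1 beside RPL22 or RPS27L beside RPS27, and some of these copies are used mainly in testis or muscle.

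The start of the transcript is shown first, because a TOP tract is the sequence feature by which the family is best known. A tract was scored where the annotated start is a C followed by at least 4 further pyrimidines, that is a run of at least 5 bases. Where a gene had several annotated starts, the one with the longest run at the start was kept. This was done for members and all other genes alike, and it can raise the percentages. RefSeq (GRCh38.p14) gave a start for 67 members, and 47 of them (70.1%) had such a run, against 1115 of 19068 genes (5.85%) over the whole table. Of the second copies, 1 of the 5 with a start had it, and among mitochondrial ribosomal protein genes 6 of 69 (8.70%). Each line below gives 15 bases before and 15 bases from the annotated start, read on the strand of the gene, with the longest run of C and T that begins with C in capitals. The first 5 are among the members with the smallest p-values in U2932, the next is RPL22 with its second copy RPL22L1, and the last 3 are other second copies.
RPL34, chr4:108620561-108620590, plus strand: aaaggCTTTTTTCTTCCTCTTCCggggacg
RPS18, chr6:33272060-33272089, plus strand: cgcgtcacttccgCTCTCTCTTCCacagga
RPL11, chr1:23691791-23691820, plus strand: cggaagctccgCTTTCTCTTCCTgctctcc
RPS3A, chr4:151099613-151099642, plus strand: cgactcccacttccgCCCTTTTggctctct
RPL13A, chr19:49487593-49487622, plus strand: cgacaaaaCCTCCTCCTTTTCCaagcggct
RPL22, chr1:6199581-6199610, minus strand: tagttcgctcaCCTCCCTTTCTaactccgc
RPL22L1, chr3:170870181-170870210, minus strand: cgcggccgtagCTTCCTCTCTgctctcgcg
RPL7L1, chr6:42879601-42879630, plus strand: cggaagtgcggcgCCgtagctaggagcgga
RPL26L1, chr5:172958714-172958743, plus strand: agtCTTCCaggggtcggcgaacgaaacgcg
RPS27L, chr15:63157463-63157492, minus strand: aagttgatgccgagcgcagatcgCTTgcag
In RPL34 the run of 18 bases began 10 bases before the annotated start, and in RPS3A a run of 7 began at the start itself. RPL22 and RPL22L1 both had a run across the start. RPL7L1 and RPS27L had no run of 5 in this window, and in RPL26L1 a run of 5 lay before the start.

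The libraries held 15440226 to 27110612 counts. B-cell genes were present, with MS4A1 at 856 to 2348 CPM (TMM-normalised counts scaled to library size) over the 12 libraries, and CD3D and GNLY, markers of T cells and natural killer cells, were at or near 0. The epithelial gene EPCAM stood at 28.6 to 37.3 CPM in U2932 and at most 0.206 CPM in TMD8. A pair of TMD8 libraries, OF replicate 2 and isotype replicate 2, had low levels of nearly all members. Mitochondrially encoded genes also held less of them, 3.73% and 3.99% of the counts against 5.70% to 6.23% in the remaining 4 TMD8 libraries, and the part of this in the results was not tested. Results that rest on this pair are given with and without it. A lower count in a bulk library cannot be told apart between fewer cells that hold the mRNA and less of it per cell, and every level is relative to the other mRNAs of the library.

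The members took a larger share of the library with either antibody than with the isotype control in U2932, and a larger mean share in TMD8 than in U2932. In U2932, members made up 6.98% and 7.27% of the counts of the R libraries, 6.69% and 6.83% of OF and 5.24% and 4.90% of the isotype control, so the 4 anti-CD20 libraries all lay above both controls. The means were 7.12 ± 0.21% with R, 6.76 ± 0.10% with OF and 5.07 ± 0.24% with the control (SD, n = 2). The anti-CD20 libraries exceeded the controls by 1.87 percentage points (two-sided exact permutation test, n = 4 and 2, p = 0.1333, the smallest this design allows). In TMD8, R gave 11.2% and 10.9%, OF 11.7% and 7.75%, and the control 11.7% and 7.02%. The groups overlapped there, and the difference of 0.991 points was within the spread between libraries (exact permutation test, n = 4 and 2, p = 0.80). Without OF replicate 2 and isotype replicate 2, the 3 anti-CD20 libraries of TMD8 lay below the remaining control by 0.490 points on average. Between the lines, the mean of 6.32% in U2932 was 3.71 points below the 10.0% in TMD8 (6 libraries from 2 cultures in each line), and the ranges overlapped, at 4.90% to 7.27% and 7.02% to 11.7%. The permutation tests above treat libraries of the same culture as separate. Counting error was small beside these differences, since no 95% exact binomial interval of a share was wider than 0.0314 points.

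**Figure D1:**
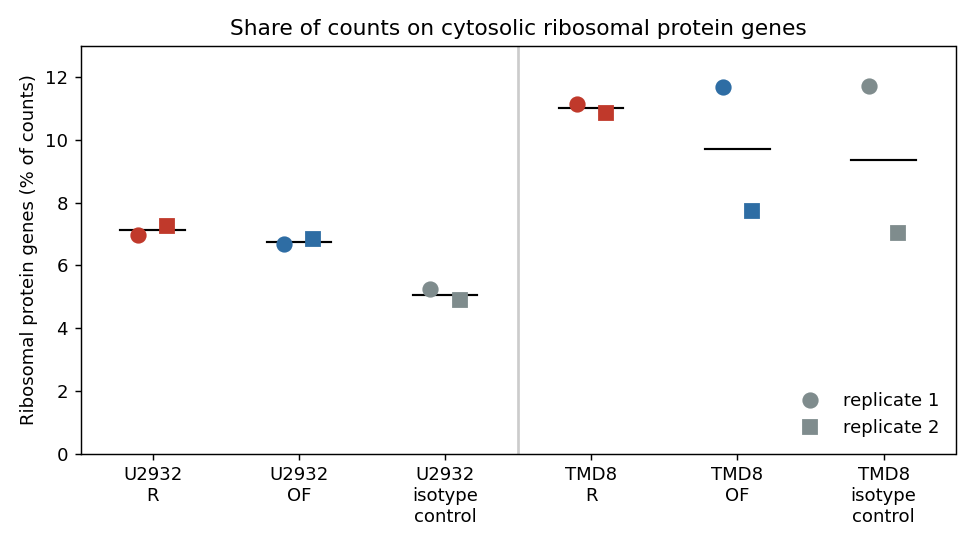
Percent of all counts of each library on the 84 cytosolic ribosomal protein genes. Circles are replicate 1, squares replicate 2, and bars the mean of each condition. In U2932 the 4 R and OF libraries (6.69% to 7.27%) sit above both isotype libraries, and in TMD8 the second replicates of OF (7.75%) and the isotype control (7.02%) sit below the other 4 libraries.

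The balance between the subunits differed between the lines. Genes of the large subunit held 60.8% to 62.4% of the members' counts in U2932 and 55.7% to 56.4% in TMD8, and the ranges did not overlap.

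Nearly the whole family rose with both antibodies in U2932, most genes by less than 1.5-fold with OF. Of the 81 members with enough counts for a test, 73 rose and 1 fell with R, and 72 rose and 1 fell with OF (edgeR's quasi-likelihood test, Benjamini-Hochberg adjusted p under 0.10 over all genes tested). Of all 14635 genes tested, 34.2% were called with R (16.8% higher, 17.4% lower) and 36.4% with OF (18.7% higher, 17.8% lower). The median log2 fold change of the members was 0.54 with R and 0.43 with OF, against −0.02 and 0.01 over all genes. A change of at least 1.5-fold as well was reached by 35 members with R and 18 with OF, against 10.2% and 11.1% of all genes. For 73 of the 81 members, the 4 anti-CD20 libraries all lay above both controls, against 23.6% of all genes, and for RPL22L1 alone they all lay below, against 24.6%. R and OF share the same pair of isotype libraries, so these are not separate observations. The calls depended on the libraries that set the spread. With all 12 libraries in 1 fit, which lets TMD8 add to the spread, 10 members rose with R and 5 with OF (RPL11, RPL13, RPL22 and RPS18 among them), the medians were 0.54 and 0.42, and 3.66% and 3.94% of all genes rose.

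The change appeared with each replicate number alone. For R, the median difference was 0.44 in replicate 1, with 76 of 81 members higher, and 0.63 in replicate 2, with 78 higher. For OF, it was 0.34 and 0.53.

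**Figure D2:**
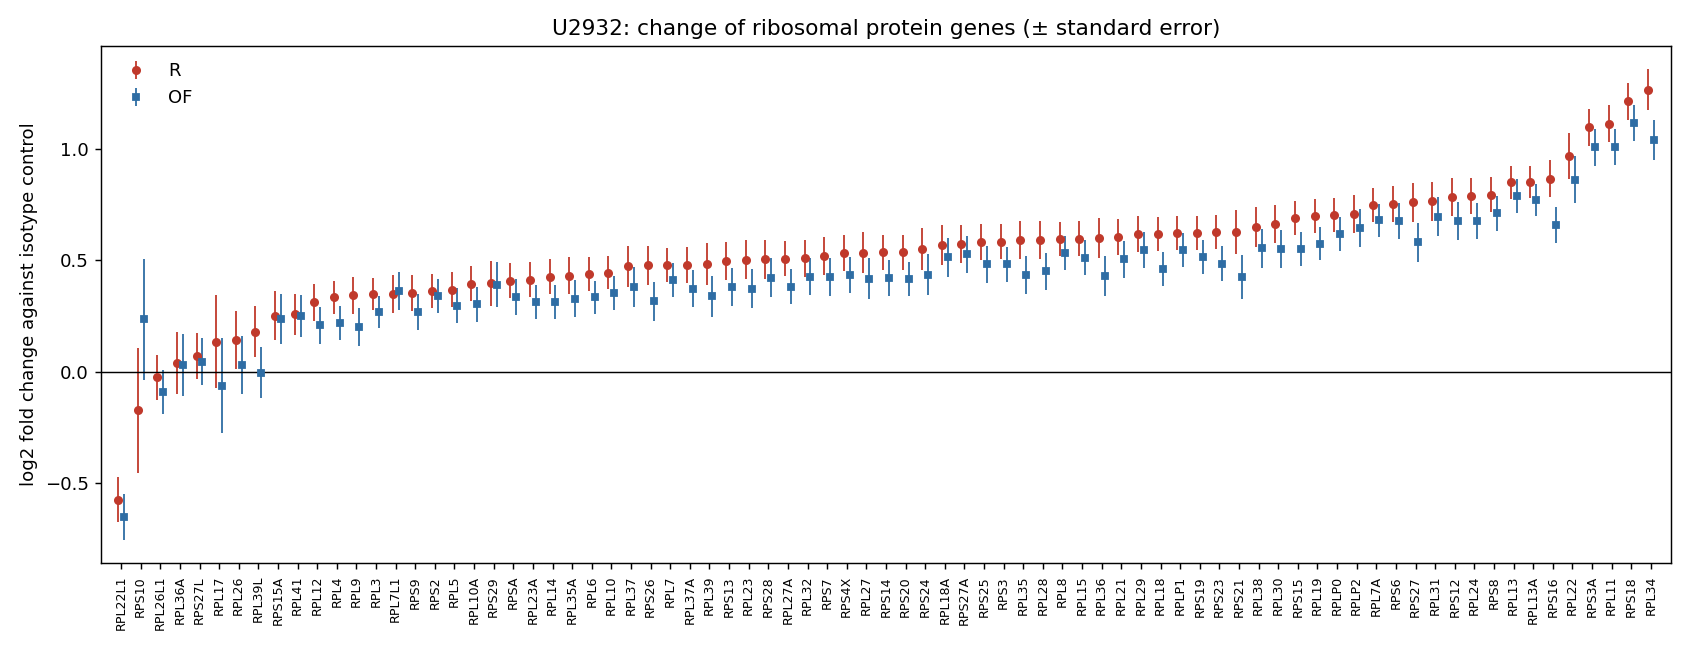
Change of 79 of the 81 tested members in U2932 relative to the isotype control, on the log2 scale, ordered by R, with standard errors. Red circles are R and blue squares OF. RPL34 stands at the right with 1.27 and 1.04, RPL22L1 at the left with −0.57 and −0.65, and most other members lie between 0.2 and 0.8 with R.

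The members with the smallest p-values came from both subunits. For RPL34, a protein of the large subunit, R gave 254.6 and 263.9 CPM, OF 209 and 232, and the control 112 and 103. The lowest anti-CD20 library lay far above the highest control, and RPL34 rose by 1.27 with R (SE 0.09, edgeR adjusted p = 1.54e-10) and by 1.04 with OF (SE 0.09, adjusted p = 4.42e-09) on the log2 scale. RPS18, a protein of the head of the small subunit, stood at 550 and 512 CPM in the control, 1155 and 1310 after R, and 1105 and 1190 after OF. Its groups did not overlap either, and the rise was 1.21 for R (SE 0.08, adjusted p = 6.73e-11) and 1.12 for OF (SE 0.08, adjusted p = 3.32e-10).

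RPS3A, a small-subunit protein on the side where mRNA leaves, stood at 548 and 583 CPM in the control, 1108 and 1314 after R, and 1137 and 1132 after OF. The log2 rise was 1.10 for R (SE 0.08, edgeR adjusted p = 4.56e-10) and 1.01 for OF (SE 0.08, adjusted p = 1.86e-09), and no anti-CD20 library came near a control. RPL13A, a large-subunit protein also known from the translational silencing complex of the interferon response, went from 1410 and 1347 CPM in the control to 2431 and 2548 with R and 2321 and 2374 with OF. It rose by 0.85 for R (SE 0.07, adjusted p = 3.14e-09) and 0.77 for OF (SE 0.07, adjusted p = 1.58e-08).

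Grouped by the part of the ribosome in which they sit, members of every group rose. By subunit, 44 of the 50 tested large-subunit members rose and 1 fell with each antibody, and 29 (R) and 28 (OF) of the 31 tested small-subunit members rose. RPL5 and RPL11 carry the 5S ribosomal RNA into the large subunit and, when free, can hold back the p53 inhibitor MDM2. Both rose with both antibodies. RPL11 went from 399 and 404 CPM in the control to 809 and 930 with R and 788 and 823 with OF (1.11, SE 0.08, edgeR adjusted p = 2.69e-10, and 1.01, SE 0.08, adjusted p = 1.51e-09, log2). RPL5 went from 873 and 898 CPM to 1077 and 1211 with R and 1070 and 1098 with OF (0.37, SE 0.08, adjusted p = 0.00076, and 0.30, SE 0.08, adjusted p = 0.00493).

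The 4 genes of the P stalk, the arm of the large subunit that recruits elongation factors, and of its base all rose with both antibodies. RPLP0, RPLP1 and RPLP2 had log2 fold changes of 0.70, 0.62 and 0.71 with R and 0.62, 0.55 and 0.65 with OF. RPL12, at the base of the stalk, had 0.31 (adjusted p = 0.00537) and 0.21 (adjusted p = 0.0561). The 4 genes whose proteins reach towards the catalytic centre of the large subunit, RPL3, RPL4, RPL8 and RPL10, rose with both, by 0.34 to 0.60 with R and by 0.22 to 0.54 with OF.

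Of the 8 genes around the exit of the peptide tunnel, 6 rose with each antibody (RPL19, RPL22, RPL23A, RPL31, RPL35 and RPL39), with R changes of 0.41 for RPL23A to 0.97 for RPL22. RPL17 and RPL26 did not pass the test. The 6 genes at the entry and exit of the mRNA channel of the small subunit all rose with both antibodies. Among them were RPS2 (0.36 with R, 0.34 with OF), RPS26 (0.48 and 0.32), RPS28 (0.51 and 0.42), RPS14 (0.54 and 0.42) and RPS3 (0.59 and 0.48). Of the 4 members on the X chromosome, RPL10, RPL39 and RPS4X rose by 0.45 to 0.53 with R, and RPL36A had 0.04 with R and 0.03 with OF (edgeR adjusted p = 0.875 and 0.895).

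Most of the second copies did not rise. Of the 7, RPL10L had no count in any library, and RPL3L, the muscle form of RPL3, had at most 10 counts and was not tested. Among the 5 tested, RPL7L1 rose with R (0.35, adjusted p = 0.00271) and OF (0.36, adjusted p = 0.00201), RPL22L1 fell with both, and RPL26L1, RPL39L and RPS27L did not pass the test. Log2 fold changes of the last 3 were −0.03, 0.18 and 0.07 with R and −0.09, 0.00 and 0.05 with OF. In all 3 the 4 anti-CD20 libraries together overlapped the controls, although both R libraries of RPL39L lay above them and both OF libraries of RPL26L1 below. An example is RPS27L, where R gave 37.2 and 38.2 CPM, OF 36.1 and 37.8, and the control 37.9 and 33.9.

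RPL22 and RPL22L1 moved in opposite directions. RPL22 binds ribosomal RNA at the tunnel exit and is known to repress its own second copy, RPL22L1, which can take its place in the ribosome. In U2932, RPL22 stood at 33.0 and 39.3 CPM in the control, 66.8 and 74.6 after R, and 64.7 and 66.3 after OF, and rose on the log2 scale by 0.97 for R (SE 0.10, edgeR adjusted p = 1.1e-07) and 0.86 for OF (SE 0.10, adjusted p = 8.47e-07). RPL22L1 stood at 76.5 and 78.6 CPM in the control, 47.0 and 57.2 after R, and 50.8 and 47.6 after OF, a log2 change of −0.57 for R (SE 0.10, adjusted p = 0.000124) and −0.65 for OF (SE 0.10, adjusted p = 2.96e-05). Neither gene had an anti-CD20 library within the range of the controls.

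In TMD8, RPL22 stood at 63.2 and 42.4 CPM in the control, 148 and 124 after R, and 128 and 90.01 after OF, the only member whose 4 anti-CD20 libraries all lay above both controls. That was 1 of 81 members, against 12% of all genes in this line, and no member had all 4 below, against 13.6%. RPL22L1 stood at 112 and 57.8 CPM in the control, 58.3 and 53.6 after R, and 60.5 and 37.0 after OF, and its groups overlapped. In TMD8, RPL22 differed from the control by 1.37 (SE 0.27, edgeR adjusted p = 0.110) for R and by 1.05 (SE 0.27, adjusted p = 0.166) for OF on the log2 scale, and the values of RPL22L1 were −0.59 (adjusted p = 0.466) and −0.79 (adjusted p = 0.382). With the replicate number as a block, RPL22 was called with both antibodies (edgeR adjusted p = 0.00225 and 0.00621) and RPL22L1 with OF (−0.77, adjusted p = 0.0443) but not with R (−0.51, adjusted p = 0.123). DESeq2 called RPL22 with both (adjusted p = 0.000815 and 0.0246).

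The ratio of RPL22 to RPL22L1 counts within a library needs no scaling between libraries, and it separated the groups in both lines. In U2932, the control had ratios of 0.431 and 0.50, R of 1.42 and 1.305, and OF of 1.27 and 1.39. In TMD8, the control had 0.565 and 0.735, R 2.53 and 2.31, and OF 2.11 and 2.43, so that OF replicate 2 and isotype replicate 2 lay with their own groups. The ratio was 2.90-fold higher with anti-CD20 in U2932 and 3.63-fold higher in TMD8 (two-sided exact permutation test on log2 ratios, n = 4 and 2, p = 0.1333 in each line, the smallest this design allows, and 0.2222 after Benjamini-Hochberg adjustment over 5 pairs in 2 lines). The pair was chosen for display after its values were seen.

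**Figure D3:**
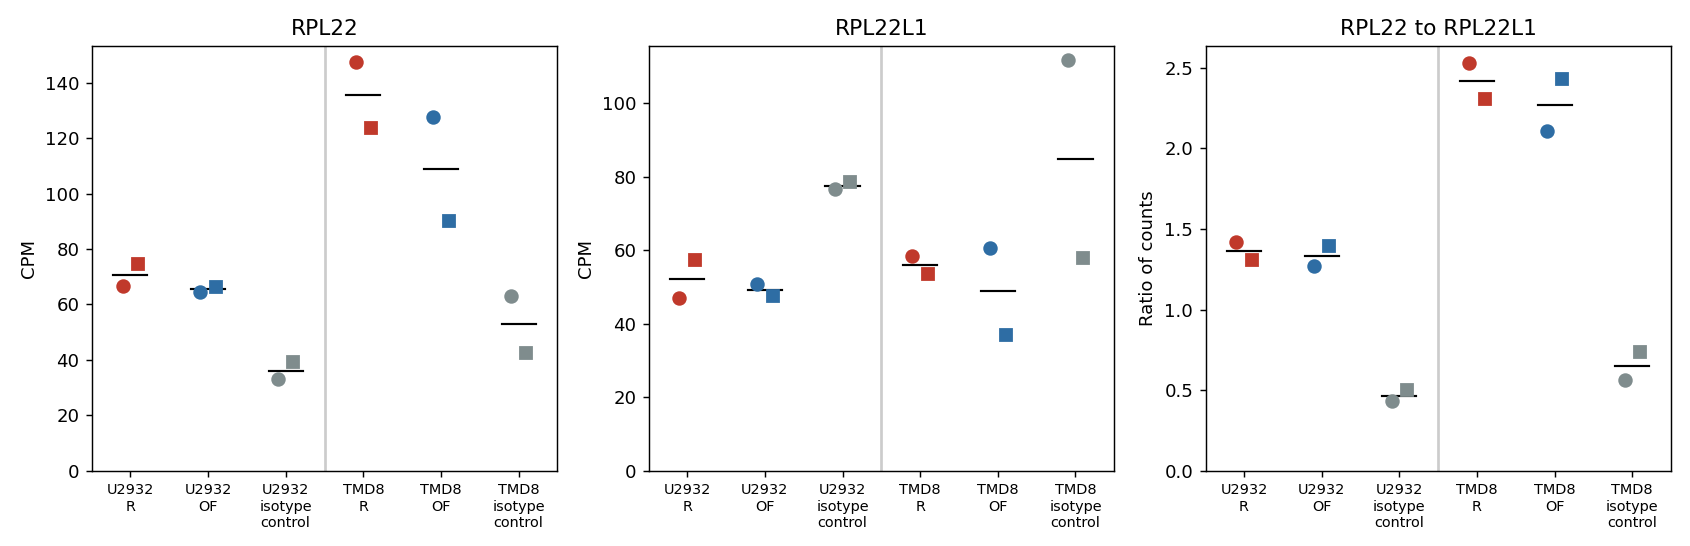
RPL22 and its second copy RPL22L1 in CPM, and the ratio of their counts, in each library. Circles are replicate 1, squares replicate 2, bars the mean of each condition; red is R, blue OF and grey the isotype control. The ratio is 0.431 to 0.735 in the 4 isotype libraries and 1.27 to 2.53 in the 8 R and OF libraries.

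For the other 4 pairs of a gene and its second copy, the ratio changed less. RPS27 to RPS27L was 1.53-fold higher with anti-CD20 in U2932 and 1.32-fold higher in TMD8, without overlap in either line. RPL39 to RPL39L was 1.25-fold higher in both lines, with overlap in TMD8. RPL26 to RPL26L1 and RPL7 to RPL7L1 differed by at most 1.11-fold.

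A few members hold counts that are uncertain. RPS10 had 29 to 87 counts and RPL17 63 to 210 counts in a library. In GENCODE 29, 39.4% of the exon bases of RPS10 also belong to the readthrough gene RPS10-NUDT3, and 24.8% of those of RPL17 to RPL17-C18orf32. Reads from near-identical copies and pseudogenes can also be lost or misplaced in a family like this one. The 1599 ribosomal protein pseudogenes in the table, 592 of them with a count, together took 0.0688% to 0.122% of the counts. Of the 7 members that did not pass the test with R, RPL17, RPS10, RPL26 and RPL36A are such low-count genes of the ordinary set, at 1.63 to 16.0 CPM in U2932, and the others are second copies. RPS15A, at 25.2 to 32.5 CPM, lay near the threshold with both (0.25, edgeR adjusted p = 0.0928 with R, and 0.24, adjusted p = 0.111 with OF).

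Within the family, changes were unequal. With each library scaled to the members' own counts in place of all genes, R left 14 members higher and 23 lower in U2932, and OF 13 higher and 21 lower. On that scale R had 1.42% of all genes higher and 73.8% lower, and OF 2.15% and 64.4%. RPL34, RPS18, RPL11 and RPS3A were high on this scale too, with 0.50 to 0.68 for R and 0.51 to 0.62 for OF. The second copies RPL22L1 (−1.17 and −1.15), RPL26L1 (−0.62 and −0.59), RPS27L (−0.52 and −0.45) and RPL39L (−0.41 and −0.50) fell behind the family with both antibodies. RPL3, RPL4 and RPL12 had −0.24, −0.26 and −0.28 with R on this scale, below the family, and RPL5 −0.22.

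R and OF did not differ beyond replicate error for any member in U2932. No member was called (0 of 81, edgeR, against 0.00683% of all genes), and DESeq2 called 0, against 0% of all genes. At an unadjusted p under 0.05 there were 3 members, against 747 of all 14635 genes. The number at an unadjusted p under 0.05 was 26 with the GC content trend removed, 27 with the replicate block as well, 21 without R replicate 1 and 14 without either isotype library, with no member called in any of these fits. The median difference was 0.10, and 79 of the 81 members were higher with R, against 7367 of all 14635 genes. RPL34 (0.23, SE 0.09), RPS16 (0.21, SE 0.08) and RPL18 (0.16, SE 0.08) had the smallest p-values, each with an edgeR adjusted p of 0.91. Without R replicate 1 the median was 0.15, and without R replicate 2 it was 0.04.

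In TMD8, no member passed the test with either antibody (edgeR, 0 of 81 with R, against 0.647% of all genes, and 0 of 81 with OF, against 0.815%, of which 0.471% higher and 0.344% lower). With each antibody 1 member, RPL22, had an unadjusted p under 0.05, against 2265 (R) and 2009 (OF) of all 14227 genes. DESeq2 called 1, also RPL22, against 5.07% of all genes with R and 4.18% with OF by that tool. The median log2 fold change was 0.28 with R and 0.07 with OF, and −0.02 and −0.01 over all genes. The median SE of a member's change was 0.40 in TMD8 and 0.08 in U2932. RPL3 had 0.55 with R (SE 0.32, adjusted p = 0.456) and RPL36A −0.29 with OF (SE 0.18, adjusted p = 0.523). Between R and OF, the median was 0.24 (−0.11 without OF replicate 2 and 0.72 without OF replicate 1), with no member called, none with an unadjusted p under 0.05 and none called by DESeq2, against 0% of all genes. RPL36A, RPL39L and RPL22 had the smallest p-values of that comparison, with 0.29, 0.50 and 0.32 (edgeR adjusted p = 0.733 for each).

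The replicates of TMD8 differed in the change with R. R minus the control had a median of −0.05 in replicate 1, with 31 of 81 members higher, and 0.79 in replicate 2, with 80 higher. For OF, the medians were 0.01 and 0.16, and for R minus OF −0.05 and 0.64. Without isotype replicate 1 the fitted R median was 0.86, and without isotype replicate 2 it was −0.11, against −0.015 and 0.006 over all genes. Each of these fits had a lone control library. With the replicate block, RPL22 and RPL11 rose with R, and RPL22 rose and RPL22L1 fell with OF, against 17.7% and 14.3% of all genes called. RPL11 had a blocked log2 fold change of 0.63 (SE 0.21, edgeR adjusted p = 0.087).

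**Figure D4:**
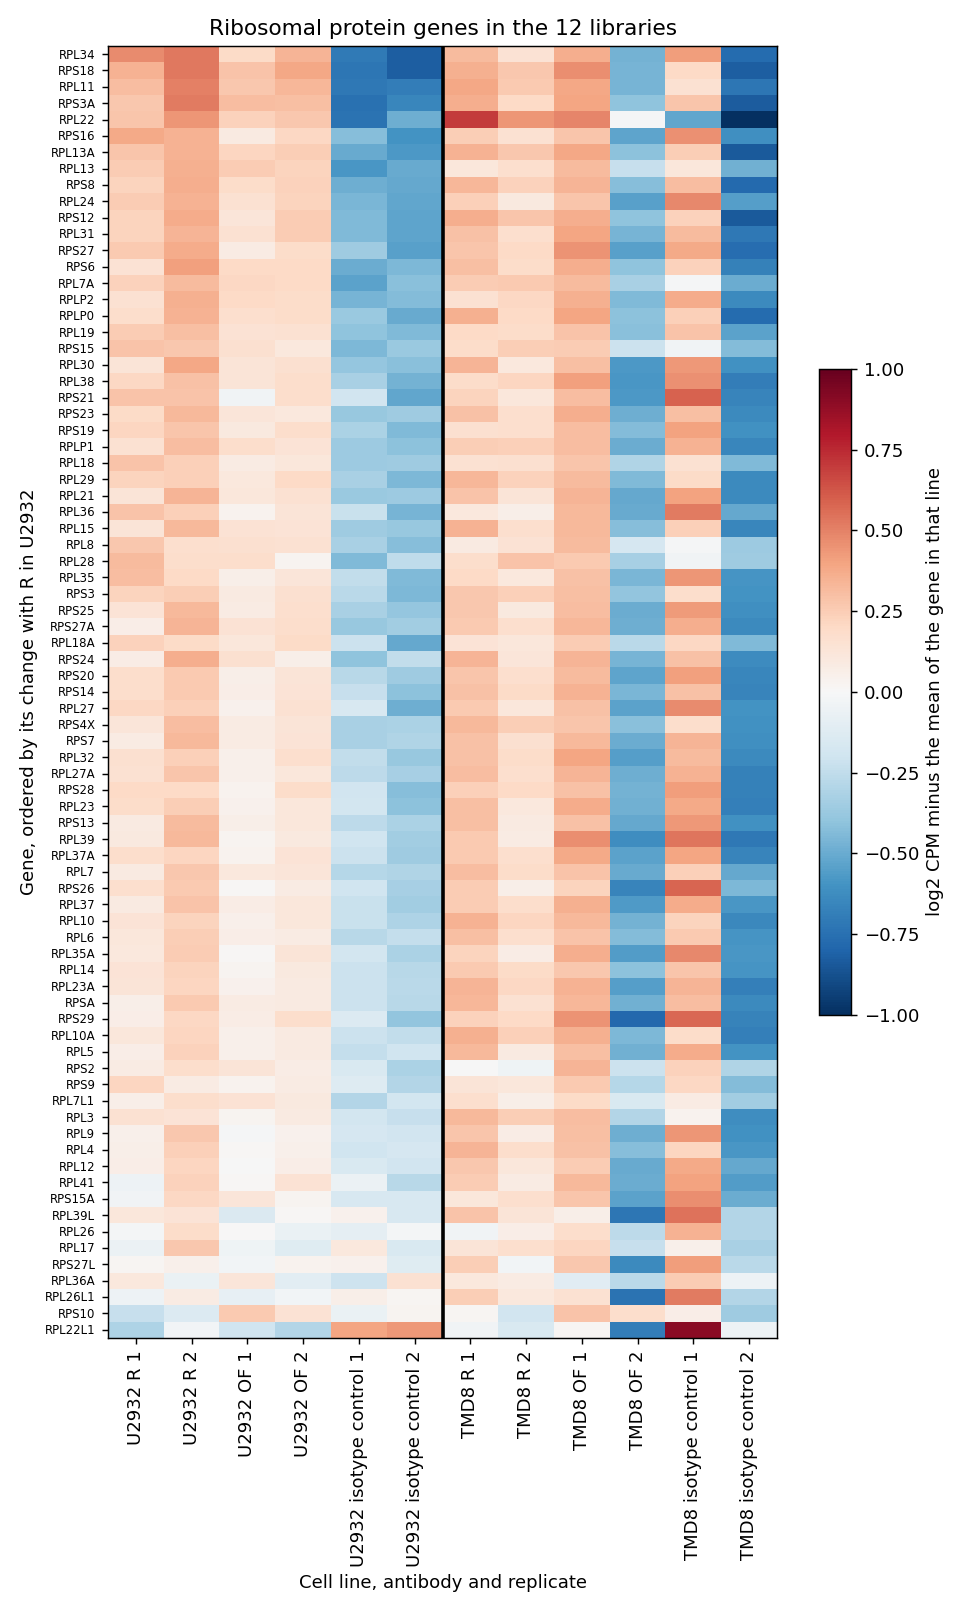
Log2 CPM of 79 of the 81 tested members in each library, as the difference from the mean of the gene in that cell line, with members ordered by their change with R in U2932. Red is above and blue below the mean of the line. In U2932 the columns of the isotype control are blue for nearly all members except RPL22L1, and in TMD8 the columns of OF replicate 2 and isotype replicate 2 are.

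Without OF replicate 2 and isotype replicate 2, the TMD8 comparison rested on 4 libraries, with the lone OF and isotype libraries assumed to vary like the R pair. Then 5 members rose and 22 fell with R, against 30.3% of all genes called (15.9% higher, 14.4% lower), with a member median of −0.12. RPL22 (1.09, SE 0.13, edgeR adjusted p = 1.52e-14), RPL28, RPL7A, RPL3 and RPS15 rose, the last 4 by 0.24 to 0.26. RPL22L1 (−1.01, SE 0.12, adjusted p = 7.75e-14), RPL36 (−0.45), RPS21 (−0.43) and RPS26 (−0.43) had the largest falls. With OF, 4 members rose and 3 fell, against 12.5% and 10.9% of all genes. RPL22 (1.00, adjusted p = 1.01e-09) and RPL22L1 (−0.90, adjusted p = 1.22e-07) led again. Between R and OF, 1 member was called, RPS2 (−0.37, adjusted p = 0.0283), against 2.14% of all genes higher and 1.86% lower.

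Whether the response differed between the lines depended on the same 2 libraries. In all 12 libraries, the interaction of cell line and antibody called no member (edgeR, 0 of 81 for R, against 0.321% of all genes, and 0 of 81 for OF, against 0.105%, of which 0.0494% higher and 0.0556% lower). The values for R were negative for 74 of 81 members and those for OF for 77, against 8625 and 8417 of all 16187 genes. The medians were −0.25 and −0.38, against −0.04 and −0.02 over all genes. At an unadjusted p under 0.05 there were 0 and 1 members, against 1924 and 1369 of all genes. DESeq2 called 0 and 0 members, against 3.37% and 1.58% of all genes. With the replicate block, 1 member was called for each antibody, against 6.04% of all genes for R and 2.23% for OF, and for R it was RPL34 (−0.85, SE 0.25, edgeR adjusted p = 0.0881), which had −0.93 for OF (SE 0.25, adjusted p = 0.103). Without OF replicate 2 and isotype replicate 2 of TMD8, 68 members had a smaller R response in TMD8 than in U2932 and 36 a smaller OF response, against 7.58% and 2.7% of all genes. RPL34 had the largest such difference for R, −1.45 (SE 0.14, adjusted p = 3.8e-08).

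Most members were lower in U2932 than in TMD8. In the mean of the 3 antibodies, 64 were lower and 4 higher (edgeR, all 12 libraries), against 40.1% and 40.0% of all genes. The member median was −0.73 on the log2 scale, against −0.01. This fit treats libraries of the same culture as separate, so its p-values can be too small. A difference of at least 1.5-fold was reached by 52, against 58.8% of all genes. Without OF replicate 2 and isotype replicate 2 of TMD8, 74 were lower and 3 higher, against 82.7% of all genes called. RPS24 had 251 to 428 CPM in U2932 and 867 to 1699 in TMD8 (−2.05, SE 0.18, adjusted p = 6.68e-07). RPL28 (−1.64), RPS15 (−1.37) and RPL18 (−1.37) were also among the members with the smallest p-values.

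The 4 members higher in U2932 were RPL39L, RPS25, RPL35A and RPL26L1. RPL39L, the second copy of RPL39 used mainly in testis, had 20.5 to 25.2 CPM in U2932 and 4.71 to 11.4 in TMD8 (1.52, SE 0.16, adjusted p = 3.59e-06). RPS25, a small-subunit protein needed for translation from several viral internal ribosome entry sites, had 666 to 1087 CPM in U2932 and 214 to 440 in TMD8 (1.36, SE 0.18, adjusted p = 2.47e-05). RPL35A had 495 to 735 CPM and 257 to 536 CPM (0.63, adjusted p = 0.00898), so its lines overlapped. RPL26L1 had 43.0 to 48.0 CPM in U2932, within its range of 21.0 to 50.3 CPM in TMD8 (0.34, adjusted p = 0.0738). Scaled to the members' own counts, 36 of 81 members were higher and 20 lower in U2932, with a median of 0.11. Of all genes, 63.2% were higher and 16.0% lower on that scale, with a median of 0.78.

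**Figure D5:**
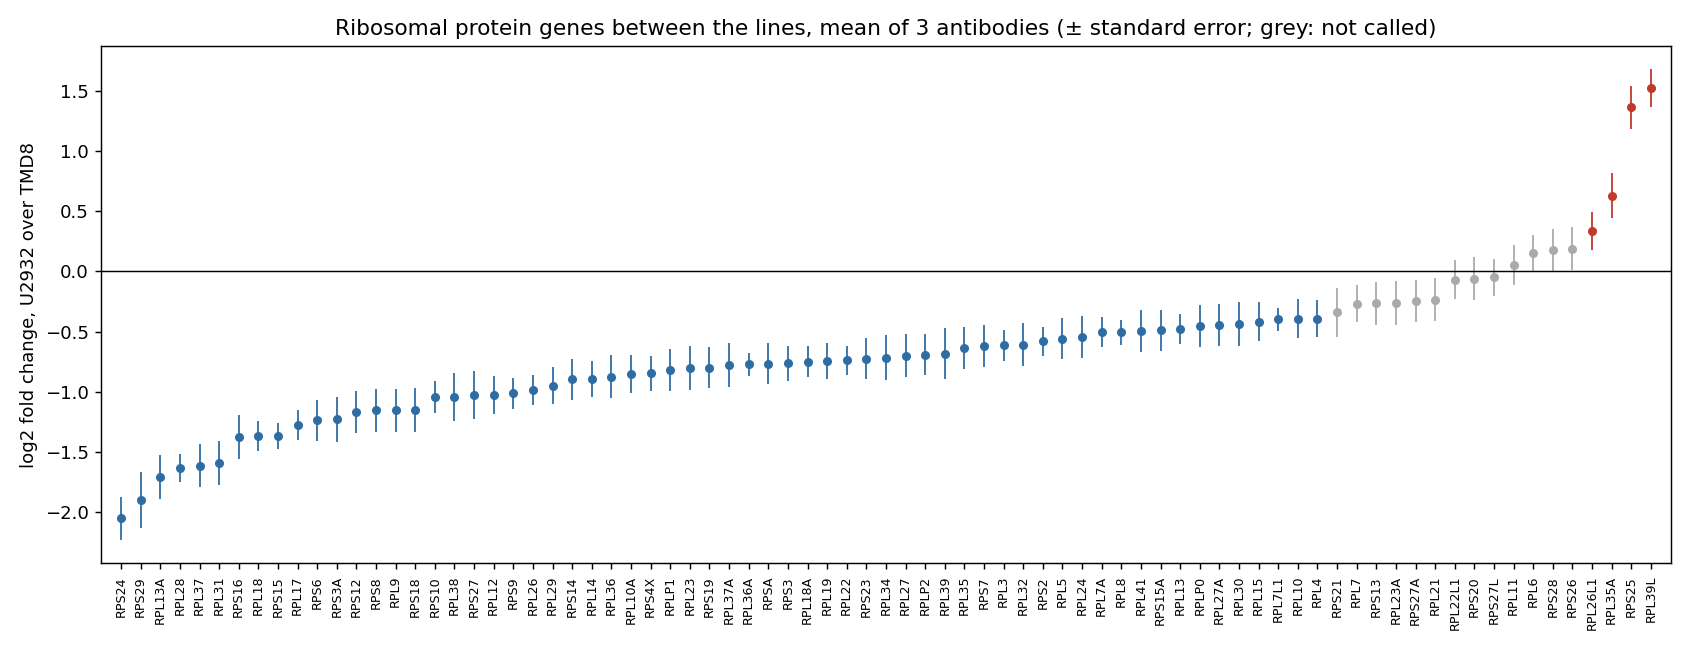
Log2 fold change of U2932 over TMD8 for 79 of the 81 tested members, as the mean of the 3 antibodies with its standard error. Blue members are called lower in U2932, red ones higher, and grey ones are not called. RPS24 stands at the left with −2.05 and RPL39L at the right with 1.52.

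Per kilobase of transcript, levels in the family covered a wide range. Lengths were those of the shortest GENCODE 29 transcript with the longest coding sequence. Among the highest in the mean of the 12 libraries were RPL13A (6589 CPM per kilobase), RPS19 (3008) and RPL28 (2972). With the longest transcript of each gene, RPS19 came to 671 and RPL28 to 415 CPM per kilobase, so their places depend on the length used, while RPL13A came to 3682. Among tested members, RPS10 (2.12), RPL17 (9.95), RPL36A (22.4), RPL39L (23.8) and RPL22 (37.7) had the lowest levels per kilobase. RPL22 came to 113 CPM per kilobase with the median length of its coding transcripts.

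Other genes that share the TOP tract or the name of the family were set beside it. FAU encodes a ribosomal protein fused to a ubiquitin-like protein, and RPL36AL is a second copy of RPL36A with a symbol outside the rule. FAU rose in U2932 by 0.76 with R (edgeR adjusted p = 4.9e-07) and 0.49 with OF (adjusted p = 0.000166). RPL36AL rose with R by 0.27 (adjusted p = 0.0386) and had 0.16 with OF (adjusted p = 0.234). Of 17 tested translation factors and other genes known for TOP mRNAs, 12 rose and 0 fell with R in U2932, and 9 rose and 0 fell with OF, beside 16.8% of all genes higher and 17.4% lower with R and 18.7% and 17.8% with OF. The largest changes were those of the elongation factor gene EEF1A1 (1.04 and 0.94, adjusted p = 5.27e-11 and 3.3e-10). RACK1, a ribosome-bound scaffold, had 0.52 and 0.41, and TPT1 0.50 and 0.40. In TMD8, 0 of the 17 were called by edgeR with either antibody, beside 0.647% of all genes with R and 0.815% with OF, with 2 at an unadjusted p under 0.05 with R and 0 with OF.

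Mitochondrial ribosomal protein genes belong to a different ribosome. Of 77 tested, 18 rose and 7 fell with R in U2932, and 12 rose and 15 fell with OF, beside 16.8% and 17.4% of all genes with R and 18.7% and 17.8% with OF. The medians were 0.05 and −0.02. Of 11 genes linked to the control of TOP mRNAs, mTOR or ribosome production, 4 rose and 2 fell with R in U2932. With OF, 6 rose and 2 fell, where 34.2% (R) and 36.4% (OF) of all genes were called. Only some of them are named here. DDIT4, an inhibitor of mTOR complex 1, rose by 1.55 (adjusted p = 3.61e-09) and 1.72 (adjusted p = 5.88e-10) in U2932, and its TMD8 values were 1.00 for R (adjusted p = 0.102) and 1.21 for OF (adjusted p = 0.0908). MYC, a transcription factor that raises ribosome production, rose by 0.43 (adjusted p = 0.0298) and 0.71 (adjusted p = 0.000546) in U2932, and its TMD8 values were 0.87 for R (adjusted p = 0.104) and 1.19 for OF (adjusted p = 0.0851). EIF4E, the cap-binding protein, fell by 0.34 (adjusted p = 0.00941) and 0.39 (adjusted p = 0.00348) on the log2 scale in U2932.

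Some features that the rule did not use went with the size of the change, as a description across members that share the same libraries. The 47 members with a run of at least 5 pyrimidines at the annotated start had a median log2 fold change with R in U2932 of 0.61, and the 19 tested members whose start lacked it 0.44. With OF, the medians were 0.48 and 0.36. In TMD8, both sets had a median of 0.29 with R. The set without a run at the start also held the second copies RPL7L1, RPL26L1 and RPS27L. Within 20 bases of the annotated start, such a run began in 62 of 67 members (92.5%), against 56.1% of all genes with a start. The sets thus differ in more than the tract, and its part in the change was not tested. Spearman's rho between the run at the start and the R change was 0.40 over 66 members, while that with GC content was 0.32 and that with mean CPM 0.33 over 81. The 28 members that carry small nucleolar RNA genes in their introns, 60 such genes in all, had a median of 0.51, and the other 53 tested members 0.57. Members lie on 21 chromosomes, 12 of them on chromosome 19.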

How the data were processed

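The submitters' processing notes name Trim Galore 0.6.0, cutadapt, FastQC, STAR 2.7.0e, DESeq2 1.26.0 and the GRCh38 build. The authors deposited raw counts of reads per gene, without normalization or filter. The counting tool's strand setting and the annotation release are not given in the sources used here. The deposited counts of 12 libraries were matched to groups by their labels. Symbols, lengths and GC content came from GENCODE 29 (58611 of 58884 identifiers matched) and starts from RefSeq.

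Counts were tested in R 4.3.3 with edgeR 4.0.16 (TMM, filterByExpr with a minimum of 10, quasi-likelihood test, Benjamini-Hochberg adjustment over all genes tested, adjusted p under 0.10), on 6 libraries within a line and on 12 between lines. CPM use TMM factors of all 12 libraries. Fold changes come from the fit. Shares and ratios were compared by exact permutation tests in SciPy 1.17.1. Same-numbered libraries were taken to share a culture, from the replicate numbers in the labels and the study's description of its 2 replicates. The labels themselves name no culture. The correlation of their deviations over all genes was −0.05 to 0.10 in U2932 and 0.22 to 0.69 in TMD8. A block on the replicate number was an alternative. Others were DESeq2 1.42.0, other scalings and filters, GC and length corrections, and leaving out libraries. Counts were simulated once per line, with 200 genes changed by 2-fold and the same fixed dispersion in both lines. On these, edgeR recovered 100% for R against isotype in U2932 (14358 genes) and 99.5% in TMD8 (13926 genes). Of its calls, 14.16% and 6.13% were false. The simulated U2932 calls thus held somewhat more false ones than the threshold of 0.10 states, and the real ones may too. The simulation lacks the wider spread of the TMD8 libraries (median SE of a member's change 0.40, against 0.08 in U2932). It therefore does not show how many such changes could be found there.

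Named members are the called ones with the smallest p-values in each direction (the first 3 where none was called), those of lists by role, and extremes of level. RPL7A, RPL28, RPL36, RPS15, RPS21 and RPS26 in the fit without a pair of TMD8 libraries, and members named on the family scale, were chosen after their values were seen. The members and lists were chosen with earlier results of these data known. P-values of tests within a line measure the spread between libraries from 2 cultures of that line. Those between the lines, of the interactions and of the fit of all 12 libraries use a spread taken over both lines. Outside the replicate block, edgeR treated libraries of the same culture as separate. Some genes are not reported here by name, and they were left out of the plots of single members but kept in all fits, counts and medians.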

Additional observations from a re-analysis of the deposited data

How the results depend on the processing

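With each library scaled to the members' own counts, R and OF called 37 and 34 members in U2932, with medians of −0.053 and −0.068, and the median was 0.003 between R and OF, 0.109 between the lines and −0.009 for the OF interaction. With all 12 libraries in 1 fit, 10 and 5 members were called in U2932 and 1 and 1 in TMD8, and with a limit of 1.5-fold 35 and 18 in U2932. For TMD8 that 1 fit had 6.26% of all genes higher and 6.09% lower with R, and 4.91% and 5.02% with OF. In TMD8, R called 1 member without the filter, with the GC content trend removed, with the length trend removed and with DESeq2, 2 with the replicate block and 7 with the block and GC removal together. OF called 2, 1, 1, 1, 2 and 2 in the same order. Of all genes, 8.99% were higher and 8.73% lower with R under the block, and 8.51% and 7.91% with GC removal as well. For OF these shares were 7.45% and 6.87%, and 8.24% and 7.5%. In the other settings just named, 1.27% to 2.83% of all genes were higher and 0.984% to 2.28% lower. The R interaction had 1 call without the filter, with the block and with the block and GC removal, and the OF interaction 5, 1 and 1. In these fits 0.328% to 3.27% of all genes were higher and 0.515% to 2.77% lower for R. For OF the shares were 0.204% to 1.77% and 0.34% to 1.25%. The median of the OF interaction was −0.346 with GC removal, −0.324 with the block as well and −0.277 with length removal. Without OF replicate 2 and isotype replicate 2 of TMD8, 27, 7 and 1 members were called for R, OF and R against OF, and 68 and 36 for the interactions, with an OF median of −0.422.

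Leaving out 1 library at a time left a lone library in a group, so only the medians are given. In U2932 they ran from 0.475 to 0.582 for R, 0.372 to 0.48 for OF and 0.035 to 0.15 between R and OF. The TMD8 medians ran from −0.109 to 0.858 for R, −0.4 to 0.615 for OF and −0.106 to 0.718 between R and OF. The R interaction had 0 to 1 calls and medians of −0.632 to 0.298, and the OF interaction 0 to 2 and −0.851 to 0.152. In TMD8, 1 of isotype replicate 1, isotype replicate 2, OF replicate 1 and OF replicate 2 was left out at each of these extremes of the medians. RPL36A changed sign between R and OF in TMD8 with scaling to the members (−0.017), and RPL26L1 between the lines with the block and GC removal (−0.055). In TMD8, the difference in the log2 ratio of RPL7 to RPL7L1, anti-CD20 minus isotype, ran from −0.155 to 0.162. For RPL26 to RPL26L1 the difference ran from −0.014 to 0.237. That of RPL7 to RPL7L1 was −0.043, −0.037 and −0.028 without R replicate 1, R replicate 2 and OF replicate 1. The cause was not tested for any of these.

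The replicate block changed no other call count of a comparison by over 1.5 times. With 2 libraries per condition the spread is known poorly, and a member's change had a median SE of 0.40 in TMD8 and 0.08 in U2932. Alignment and the handling of reads that match several loci were not varied, and could alter members with near-identical copies.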
